A study of Mus musculus with 9 samples.

Results

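The heparan sulfate 3-O-sulfotransferases measured in these cortices were Hs3st1, Hs3st2, Hs3st3a1, Hs3st3b1, Hs3st4 and Hs3st5, which are 6 of the 24624 genes in the expression table. They were taken by gene symbol as the family of Hs3st4. Hs3st4 itself was picked because its RNA fell most reliably in Fezf2-/- cortex, so the difference between Fezf2-/- and Fezf2+/+ is described for this family and not tested. RNA from the cortex of newborn (postnatal day 0, P0) mice was sequenced as polyA-selected libraries, each from the pair of hemispheres of 1 pup, to ask which genes depend on the transcription factor FEZF2 and which are restored when it is replaced by a fusion with a repressor domain. There were 3 Fezf2+/+ libraries, 4 Fezf2-/- libraries and 2 Fezf2-/-; Fezf2-EnR libraries, called Fezf2-EnR libraries from here on. The Fezf2- allele is a null allele with a placental alkaline phosphatase gene knocked in at the locus. The Fezf2-EnR pups carried the same 2 null alleles and a bacterial artificial chromosome transgene, in which the DNA-binding part of FEZF2 fused to the engrailed repressor domain is driven by the Fezf2 regulatory region. The pups came from matings of Fezf2+/- with Fezf2+/-; Fezf2-EnR mice, and their sex was not given. The labels name 3 litters: the Fezf2+/+ libraries came from m1, m1 and m2, the Fezf2-/- libraries from m1, m1, m3 and m3, and the Fezf2-EnR libraries from m2 and m3. By their label codes they are bc201 to bc203 (Fezf2+/+), bc204 to bc207 (Fezf2-/-), and bc208 and bc209 (Fezf2-EnR), of which bc204, bc207 and bc208 belong to litter m3.

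Heparan sulfate is a sugar chain that is attached to core proteins of the cell surface and the extracellular matrix and is sulfated at several positions by enzymes of the Golgi. The 3-O-sulfotransferases add the last and rarest of these sulfate groups, to the glucosamine residue, and so create binding sites for particular proteins, among them antithrombin and the axon guidance receptor neuropilin-1. The family is divided by the kind of site it makes. HS3ST1 makes the antithrombin-binding site, HS3ST2, HS3ST3A1, HS3ST3B1 and HS3ST4 make the kind of site that is bound by the herpes simplex glycoprotein gD, and HS3ST5 makes both kinds. Hs3st2 and Hs3st4 are known as the neuronal members.

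In the annotation of GRCm38 the 6 genes lie on 4 chromosomes. Hs3st4 (ENSMUSG00000078591.1) spans 416.1 kb of chr7:123982869-124398989 on the plus strand with 2 exons, and Hs3st2 (ENSMUSG00000046321.8, chr7:121391859-121501770, plus strand) lies 2.48 Mb before it. Hs3st3b1 (ENSMUSG00000070407.5, chr11:63885792-63922290, minus strand) and Hs3st3a1 (ENSMUSG00000047759.6, chr11:64435332-64522841, plus strand) are neighbours at a distance of 0.51 Mb. Hs3st1 (ENSMUSG00000051022.7) is at chr5:39613935-39755475 on the minus strand, and Hs3st5 (ENSMUSG00000044499.11) is at chr10:36506814-36834397 on the plus strand. Hs3st3a1 and Hs3st3b1 share 416 stretches of 50 nucleotides, which are 10.7% of those in Hs3st3a1 and 8.6% of those in Hs3st3b1, so the gene of origin of reads from these stretches is uncertain. No other pair of the family shares such a stretch. Exons of Hs3st4, Hs3st2 and Hs3st3a1 overlap genes of the opposite strand (Gm27040, Gm36736 and F930015N05Rik), which were listed at no more than 10.9, 5.02 and 3.16 normalized units in any library. Whether the counting used strand is not given in the sources used here.

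The sequences before the start sites are shown for Hs3st4, Hs3st3b1 and Hs3st5, whose levels follow 3 different patterns below and whose windows can be printed without exon sequence. They are taken from RefSeq (GRCm38.p6) and run 5′ to 3′ on the strand of the gene, at chr7:123982578-123982827 (plus), chr11:63922291-63922534 (minus) and chr10:36506557-36506806 (plus). Those of Hs3st4 and Hs3st5 end next to the RefSeq start site. That of Hs3st3b1 is cut to 244 of its 250 bases, so that it ends next to the annotated exon of the gene. Capitals mark the GC box (GGGCGG or its reverse complement CCGCCC) and the CCAAT box (CCAAT or its reverse complement ATTGG).
Hs3st4: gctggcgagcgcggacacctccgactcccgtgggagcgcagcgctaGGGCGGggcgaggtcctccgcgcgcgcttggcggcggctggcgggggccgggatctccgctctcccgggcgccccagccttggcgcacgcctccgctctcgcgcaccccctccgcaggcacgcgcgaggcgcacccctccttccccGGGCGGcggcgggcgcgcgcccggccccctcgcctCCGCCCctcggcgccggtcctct
Hs3st3b1: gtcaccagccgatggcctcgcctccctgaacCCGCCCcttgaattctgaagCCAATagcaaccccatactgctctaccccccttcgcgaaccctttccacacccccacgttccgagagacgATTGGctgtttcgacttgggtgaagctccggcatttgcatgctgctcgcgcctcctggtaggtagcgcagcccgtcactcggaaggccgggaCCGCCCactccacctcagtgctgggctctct
Hs3st5: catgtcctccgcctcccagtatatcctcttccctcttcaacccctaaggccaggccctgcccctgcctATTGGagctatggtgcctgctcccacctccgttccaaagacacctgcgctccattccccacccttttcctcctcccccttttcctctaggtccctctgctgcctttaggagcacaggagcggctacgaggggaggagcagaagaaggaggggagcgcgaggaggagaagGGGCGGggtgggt

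The Hs3st4 window is almost a run of G and C. Its GC content was 82.0% with 43 CpG dinucleotides, against medians of 52.4% and 6 over 32851 windows of 250 bases, and both values were at the 99.3 percentile. The full window of 250 bases of Hs3st3b1 had 62.4% GC and 17 CpG, and that of Hs3st5 62.0% and 8. The letters of the GC box occurred 3 times before Hs3st4, 2 times before Hs3st3b1 and 1 time before Hs3st5, and 32.74% of all windows held them. The letters of the CCAAT box occurred before Hs3st3b1 and Hs3st5 and not before Hs3st4, and 33.85% of all windows held them. TATAAA (12.37% of windows) and CAGCTG (13.0%) were found in none of the 6 windows, with both strands searched. The cyclic AMP response element TGACGTCA, present in 1.55% of windows, was found in the windows of Hs3st2 and Hs3st3a1. The former window lies within the annotated Hs3st2 gene and holds exon sequence of it, and the latter overlaps an exon of F930015N05Rik. All these motif matches describe letters only.

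The libraries held between 18716575 and 25127623 reads assigned to genes. The unit throughout is the normalized value, the number of reads of a gene divided by the size factor of its library, so that 1 read was worth between 0.831 and 1.09 units. Fezf2, the targeted gene, was listed at 1232, 1010.0 and 979 in the Fezf2+/+ libraries. It was at 193 to 242 in the Fezf2-/- libraries, lower as the labels say but still present in each of them. It stood at 907 and 1001 in the Fezf2-EnR libraries, where reads of the transgene and of the endogenous gene cannot be told apart. Unless said otherwise, the tests below were run on the 16197 genes whose mean over the libraries reached 10. Of these, 139 differed between Fezf2-/- and Fezf2+/+, 124 between Fezf2-EnR and Fezf2-/-, and 19 between Fezf2-EnR and Fezf2+/+, by limma with a Benjamini-Hochberg adjusted p under 0.05.

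Hs3st4 was the most abundant member in Fezf2+/+ cortex, dropped to the third place in Fezf2-/- cortex and was the most abundant again with Fezf2-EnR. Its normalized value was 2290.4, 2398 and 2233 in the 3 Fezf2+/+ libraries. In the 4 Fezf2-/- libraries it was 570.3, 575, 584 and 615, and in the 2 Fezf2-EnR libraries it was 1824 and 2201. All Fezf2-/- libraries lay far below all others, and both Fezf2-EnR libraries lay below the lowest Fezf2+/+ library, bc209 by less than the Fezf2+/+ SD and bc208 by more. The Fezf2+/+ mean of 2307 ± 83.5 (SD, n = 3) compared with means of 586 ± 19.96 (SD, n = 4) for Fezf2-/- and 2012 ± 266 (SD, n = 2) for Fezf2-EnR. The Fezf2-/- mean was 25.4% of the Fezf2+/+ mean, a 3.94-fold difference and a log2 fold change of -1.98 (SE 0.07) on the log2(value + 1) scale. This was the contrast that chose the gene. Among all genes tested Hs3st4 had the smallest p in it, and the gene next in that order was Nxph3, with a log2 fold change of -2.70 (SE 0.10). In bulk tissue, fewer cells that express a gene and less RNA of it per cell cannot be told apart.

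The Fezf2-EnR libraries took no part in that choice. Hs3st4 was 3.44 times as high in them as in Fezf2-/-, a log2 fold change of 1.77 (SE 0.08, 95% interval 1.59 to 1.95) with an adjusted p of 3.32e-06 by limma. The Fezf2-/- libraries on the other side of this comparison are those by which the gene was chosen. Against Fezf2+/+ the level with Fezf2-EnR was 87.2%. That log2 fold change was -0.20 (SE 0.09, 95% interval -0.39 to -0.01), and its adjusted p of 0.238 by limma did not pass the threshold. The interval, which is not adjusted for the number of genes, lies below 0, and the Fezf2+/+ libraries too were used in the choice. The value was -0.07 without bc208 and -0.34 without bc209, and the call was made in neither. Within Fezf2-/- the libraries of litters m1 and m3 overlapped, with a log2 fold change of -0.03 (SE 0.08).

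**Figure D1:**
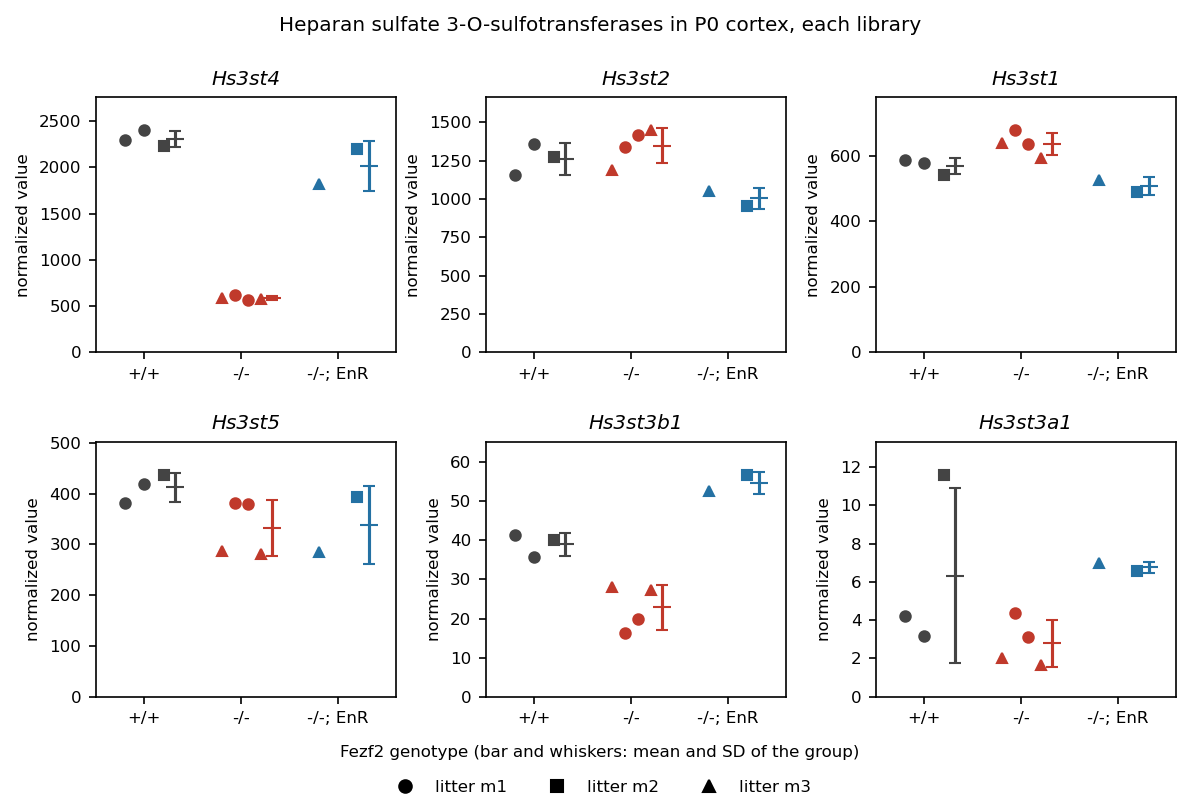
Normalized value (reads divided by the size factor of the library, linear axes from 0) of the 6 genes in each library, by Fezf2 genotype, with the marker shape giving the litter and the bar and whiskers the group mean and SD (n = 3, 4 and 2). Hs3st4 is low in all 4 Fezf2-/- libraries and at 1824 or above in the other 5, Hs3st3b1 is lowest in Fezf2-/- and highest with Fezf2-EnR, and Hs3st5 is low in the 3 libraries of litter m3.

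Hs3st2, the other neuronal member, did not follow Hs3st4. Its normalized value was 1153, 1271 and 1359 in Fezf2+/+, 1190.1, 1336, 1416 and 1447 in Fezf2-/-, and 955 and 1052 in Fezf2-EnR. The Fezf2+/+ and Fezf2-/- libraries overlapped, and both Fezf2-EnR libraries lay below all the others. The means were 1261 ± 103 (SD, n = 3), 1347 ± 115 (SD, n = 4) and 1004 ± 68.9 (SD, n = 2), and the log2 fold change of Fezf2-/- against Fezf2+/+ was 0.09 (SE 0.09). Between Fezf2-EnR and Fezf2-/- it was -0.42 (SE 0.10, 95% interval -0.64 to -0.21, adjusted p = 0.0904 by limma), and between Fezf2-EnR and Fezf2+/+ it was -0.33 (SE 0.10, adjusted p = 0.154 by limma). Neither passed the threshold, although DESeq2 on the reads gave an adjusted p of 0.00639 for the first.

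Hs3st1, which makes the antithrombin-binding site, was slightly higher in Fezf2-/-. Its normalized value was 543, 579 and 589 in Fezf2+/+, 593, 637, 639 and 678 in Fezf2-/-, and 489.5 and 527 in Fezf2-EnR. The 3 genotypes did not overlap, but the gap between the highest Fezf2+/+ and the lowest Fezf2-/- library was small. The log2 fold change was 0.16 (SE 0.07) in Fezf2-/- against Fezf2+/+ and -0.32 (SE 0.08, adjusted p = 0.113 by limma) in Fezf2-EnR against Fezf2-/-. The latter did not pass the threshold, and DESeq2 on the reads gave an adjusted p of 0.0451. Against Fezf2+/+ the Fezf2-EnR libraries differed by -0.17 (SE 0.09, adjusted p = 0.318 by limma).

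Hs3st3b1, at a far lower level, was the paralog whose profile over the genotypes came closest to that of Hs3st4. Its normalized value was 35.8, 40.05 and 41.4 in Fezf2+/+, 16.3, 19.8, 27.4 and 28.1 in Fezf2-/-, and 52.8 and 56.8 in Fezf2-EnR. No genotype overlapped another, with Fezf2-EnR above Fezf2+/+ and Fezf2-/- at the bottom. The Fezf2-/- mean of 22.9 ± 5.78 (SD, n = 4) was 58.7% of the Fezf2+/+ mean of 39.1 ± 2.94 (SD, n = 3), a log2 fold change of -0.78 (SE 0.21). With Fezf2-EnR the gene was 2.39 times as high as in Fezf2-/- (54.8 ± 2.86, SD, n = 2), with a log2 fold change of 1.25 (SE 0.24, 95% interval 0.72 to 1.79) and an adjusted p of 0.0464 by limma, so that it rose. This call was near the threshold: of the 9 fits that left out 1 library it was kept only without bc204 or without bc208, the log2 fold changes were 1.11 to 1.36 and the adjusted p reached 0.435 (without bc209), and it was lost as well in the fit with litter as a term (1.12, adjusted p = 0.0942). The difference between Fezf2-EnR and Fezf2+/+, 0.48 (SE 0.25, adjusted p = 0.325 by limma), did not pass.

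Its neighbour Hs3st3a1 was barely detected. It was listed at 3.16, 4.22 and 11.6 in Fezf2+/+, 1.66, 2.01, 3.13 and 4.36 in Fezf2-/-, and 6.56 and 6.97 in Fezf2-EnR, which is between 2 and 11 reads in each library. Its mean of 4.85 was below the minimum of 10, so it was not part of the fit. The Fezf2-EnR libraries lay above the Fezf2-/- libraries, with an exact two-sided permutation p of 0.13, where 0.067 is the smallest that 2 against 4 libraries can give. The Fezf2+/+ libraries overlapped both groups. Given the sequence it shares with Hs3st3b1, its reads are uncertain.

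Hs3st5 was lower in the 3 libraries of litter m3 than in the other 6. Its normalized value was 382, 419 and 437 in Fezf2+/+, 281, 287, 379 and 381 in Fezf2-/-, and 285 and 393 in Fezf2-EnR. The values of 281, 285 and 287 all came from litter m3, in both genotypes, and the other 6 libraries lay at 379 and above. The 3 libraries of litter m3 were likewise apart from the other 6 for 9.46% of all genes tested. The Fezf2-/- libraries all lay below the Fezf2+/+ libraries, the nearest of which was at 382, with a log2 fold change of -0.33 (SE 0.15), and this was -0.09 with litter as a term and -0.07 within litter m1 alone. Fezf2-EnR differed from Fezf2-/- by 0.03 (SE 0.17, 95% interval -0.34 to 0.39, adjusted p = 0.955 by limma) and from Fezf2+/+ by -0.30 (SE 0.17, adjusted p = 0.371 by limma), which became -0.07 without bc208 and -0.53 without bc209. No Fezf2+/+ library came from litter m3.

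Litter was compared within Fezf2-/-, where m1 and m3 have 2 libraries each and the genotype is the same. The log2 fold change of m3 against m1 was -0.42 (SE 0.09, adjusted p = 0.125 by limma) for Hs3st5, 0.60 (SE 0.25, adjusted p = 0.322) for Hs3st3b1, and between -0.09 and -0.03 for the other members tested. The litters did not overlap for Hs3st5 and Hs3st3b1, nor for 47.9% of all genes. Of the 5 members 0 were called by limma, against 0.358% of all genes, and 1, Hs3st5, had an unadjusted p under 0.05 (0.00278), as had 15.7% of all genes. A fit to all 9 libraries with both genotype and litter terms, added after these values were seen, gave -0.40 (SE 0.08, adjusted p = 0.0304 by limma) for Hs3st5 and called 4.13% of all genes. Red blood cell markers were also lower in litter m3 within Fezf2-/-, where 3 of 5 fell by limma, with sums of 5107 and 5396 against 8283 and 8883 in m1. The 8 striatal markers all had a positive fold change of m3 against m1 there and 0 passed by limma, with sums of 1338 and 3725 in m3 against 1411 and 1639.9 in m1. The part of these markers in the level of Hs3st5 was not tested.

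Over the family, the libraries of Fezf2-/- and Fezf2+/+ did not overlap for 4 of the 5 members tested, and 1, Hs3st4, passed the adjusted threshold there. Of all genes 13.0% had no overlap and 0.858% passed in that comparison, in which the family was chosen, so nothing is read from these counts. In Fezf2-EnR against Fezf2-/-, 2 of the 5, Hs3st4 and Hs3st3b1, rose and 0 fell, and of all genes 0.333% rose and 0.766% changed in either direction. The Fezf2-/- libraries on one side of that comparison chose Hs3st4 for its low level, and the call of Hs3st3b1 was lost in most fits with a library left out, so nothing is read from this count either. In that comparison 4 of the 5 members had no overlap, as had 24.6% of all genes. In Fezf2-EnR against Fezf2+/+, 0 of the 5 passed limma's adjusted threshold, against 0.117% of all genes, and 4 of the 5 had no overlap, as had 34.6% of all genes. At an unadjusted p under 0.05 the members were 2, Hs3st2 and Hs3st4, against 19.3% of all genes, and on the reads edgeR called 0 of the 5 and DESeq2 0 of the 4 to which it gave an adjusted p. The median log2 fold change over all genes was 0, 0.003 and -0.005 in the 3 comparisons. The comparisons share their libraries and are not independent of each other.

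Levels of different genes were compared per kilobase of merged exon, as the normalized value divided by that length. In Fezf2+/+ the order was Hs3st4 (723 ± 26.2 units per kb, SD, n = 3), Hs3st2 (414 ± 33.9), Hs3st1 (256 ± 10.9), Hs3st5 (95.1 ± 6.51), Hs3st3b1 (7.96 ± 0.599) and Hs3st3a1 (1.61 ± 1.17), and no neighbours in this order overlapped between libraries. In Fezf2-/- it was Hs3st2 (442 ± 37.6, SD, n = 4), Hs3st1 (285 ± 15.5), Hs3st4 (184 ± 6.26), Hs3st5 (76.5 ± 12.8), Hs3st3b1 (4.67 ± 1.18) and Hs3st3a1 (0.708 ± 0.310), again with no overlap of neighbours. With Fezf2-EnR the order of Fezf2+/+ returned, with Hs3st4 at 631 ± 83.5 units per kb (SD, n = 2) and Hs3st2 at 329 ± 22.6. The length of the longest transcript in place of the merged exons kept these orders.

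The summed level of the family was lower in Fezf2-/- with Hs3st4 counted and overlapped with Fezf2+/+ when it was left out. Hs3st4 made up 47.6% to 49.3% of the family's summed level per kilobase in the Fezf2+/+ libraries, 17.5% to 19.6% in Fezf2-/-, and 46.4% and 52.0% in Fezf2-EnR. The sum was 1458 to 1562 units per kb in Fezf2+/+, 932 to 1027 in Fezf2-/-, and 1231 and 1327 in Fezf2-EnR. Without Hs3st4 it was 739.8 to 809.9, 749 to 842, and 637 and 659. In this remainder the Fezf2-EnR libraries lay below all the others. These sums contain the values by which Hs3st4 was chosen and were not tested.

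**Figure D2:**
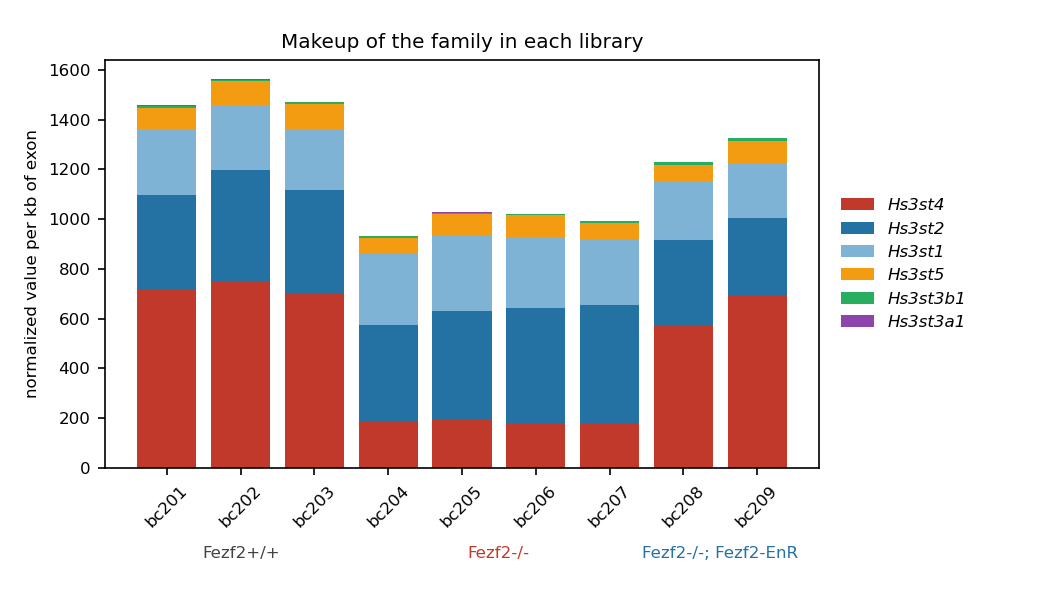
Stacked bars of the normalized value per kilobase of merged exon for the 6 genes in each of the 9 libraries, grouped by genotype. The Hs3st4 part is 17.5% to 19.6% of the bar in the 4 Fezf2-/- libraries and at least 46.4% in the other 5, whereas the rest of the bar is of like height in Fezf2+/+ and Fezf2-/-.

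The genes whose profile was nearest to that of Hs3st4 were sought among all genes tested, by the root mean square difference over the 9 libraries of log2(value + 1) after each gene was centred on its Fezf2+/+ mean. They were Tcerg1l (0.176), Fezf2 itself (0.258), Clic5, an intracellular chloride channel gene (0.313), Trh, the precursor of thyrotropin-releasing hormone (0.316), and Zfpm2, a transcriptional cofactor of layer 6 neurons (0.328). Tcerg1l had values of 750.4 to 877 in the Fezf2+/+ libraries, of 162 to 197 in the Fezf2-/- libraries, and of 699.9 and 765 with Fezf2-EnR. Since likeness to Hs3st4 picked them, their shared pattern is no finding. Trh departed from it in bc209, where its value of 34.96 was below every Fezf2+/+ library (52.7 to 64.2). The paralogs were farther from Hs3st4, at 0.896 for Hs3st3b1, 1.112 for Hs3st5, 1.388 for Hs3st2 and 1.426 for Hs3st1.

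**Figure D3:**
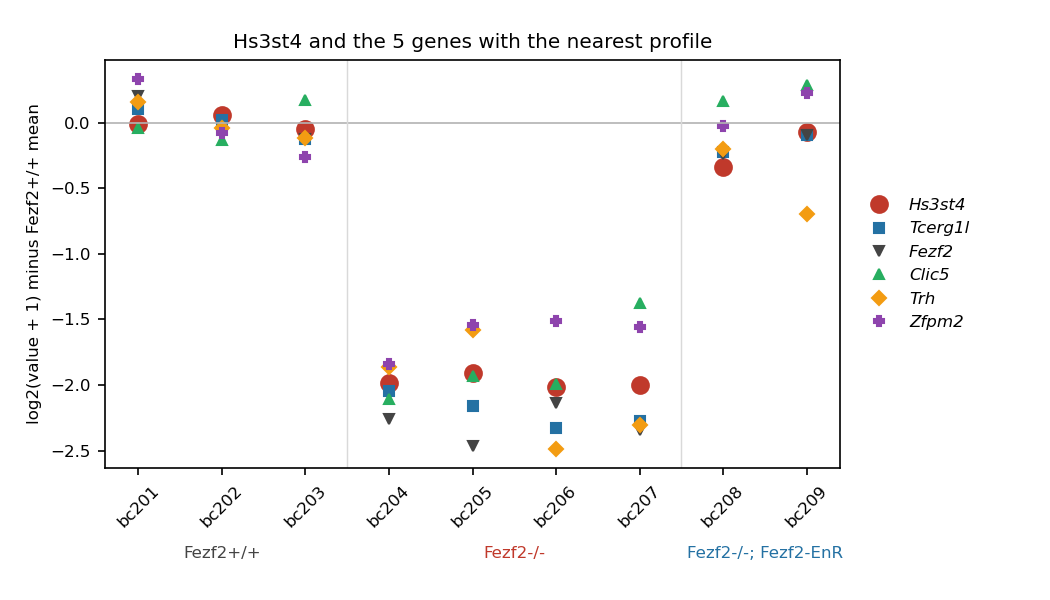
Log2(value + 1) minus the Fezf2+/+ mean of the same gene, for Hs3st4 and the 5 genes nearest to it, in each of the 9 libraries by genotype. All 6 genes lie at least 1.37 below 0 in the Fezf2-/- libraries, and in the Fezf2-EnR libraries Trh is the farthest below 0, at -0.70.

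Some markers of deep-layer neurons were lower in Fezf2-/- together with Hs3st4. Of 7 markers of layer 6 corticothalamic neurons, 3 fell in Fezf2-/- by limma (Tle4, log2 fold change -1.55, Syt6, -1.60, and Zfpm2, -1.61) and 3 rose with Fezf2-EnR against Fezf2-/-, and their summed level was 17130 to 17988 in Fezf2+/+, 12867 to 14509 in Fezf2-/- and 17794 to 21903 in Fezf2-EnR. Of 5 subplate and layer 6b markers, 3 fell (Cplx3, Ctgf and Nxph4) and 1 rose (Nr4a2), with sums of 3552 to 3915, 4286 to 5815 and 3400.3 to 3924. Nr4a2 made up most of each sum, with means of 2243 in Fezf2+/+, 3797 in Fezf2-/- and 2335 in Fezf2-EnR, so the sums do not show the 3 that fell. Of 6 layer 5 subcerebral markers, 3 fell (Tcerg1l, Bhlhe22 and Ldb2), with sums of 17583 to 17808, 12293 to 14412 and 18702 to 20093. No marker of these lists was at 0 in every library, and their part in the level of Hs3st4 was not tested. Hs3st1 was slightly higher in Fezf2-/-, a difference that was not tested. Of 7 GABAergic interneuron markers, 0 passed there by limma and 6 had an unadjusted p under 0.05 (10.8% of all genes did), all with a positive fold change. Gad2 had its highest mean with Fezf2-EnR, at 581, 805 and 852 in Fezf2+/+, Fezf2-/- and Fezf2-EnR. The summed levels of the 7 markers, 6486 to 6855, 8313 to 9639 and 6382 to 7774, were highest in Fezf2-/-. The sums of the 4 oligodendrocyte precursor markers were likewise highest there, at 4568 to 4854, 5147 to 5432, and 5092 to 5134. So were the subplate and layer 6b sums above. Astroglial sums (13328 to 14039, 14171 to 16628, and 14909 to 16602) and thalamic sums (1649 to 1781, 1793 to 2180, and 1561 to 1833) were above Fezf2+/+ in Fezf2-/- and overlapped with Fezf2-EnR. The part of any of these lists in the level of Hs3st1 was not tested.

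Among the other marker lists, none of the callosal (6 genes), striatal (8), astroglial (5), oligodendrocyte precursor (4), endothelial (4), microglial (5) and red blood cell (5) markers passed in Fezf2-/- against Fezf2+/+ by limma. At an unadjusted p under 0.05 these were 0, 2, 2, 2, 0, 1 and 0 genes, against 10.8% of all genes. Slc17a6, of 5 thalamic markers tested, rose by 0.59 on the log2 scale, and Lum, of 5 meningeal markers, fell by 2.40. Lum was low, with means of 19.5 in Fezf2+/+ and 3.14 in Fezf2-/-. The other 4 meningeal markers had positive fold changes, of 0.01 to 0.39 on the log2 scale. The 4 choroid plexus markers summed to between 4.38 and 17.9 in every library, and none was tested. In the Fezf2-EnR libraries the red blood cell markers summed to 4202 and 4554, below the 5107 to 8883 of all other libraries. Their part in the lower values of Hs3st1 and Hs3st2 there was not tested.

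Few of the other heparan sulfate genes passed the test. Of 45 genes of the pathway besides the 6 members, 42 were tested, and 2 rose and 0 fell in Fezf2-/- against Fezf2+/+ by limma, against 0.858% of all genes, with 8 at an unadjusted p under 0.05 (10.8% of all genes). The median log2 fold change of the 42 was 0.04. In Fezf2-EnR against Fezf2-/- 0 of 42 passed and 15 had an unadjusted p under 0.05 (16.9% of all genes did), the median was -0.18, and 31 of the 42 were negative. In Fezf2-EnR against Fezf2+/+ 0 passed, 8 had an unadjusted p under 0.05 (19.3% of all genes did), and the median was -0.11.

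The 2 that rose act on the finished chain or carry it. Sulf1, an extracellular enzyme that removes 6-O-sulfate groups, had values of 387 to 511 in Fezf2+/+, 676 to 1149 in Fezf2-/-, and 519 and 562 in Fezf2-EnR. The Fezf2-/- libraries lay above all the others, with a log2 fold change of 0.95 (SE 0.16, adjusted p = 0.0248 by limma). Gpc4, a glypican core protein on the cell surface, had values of 208 to 297, of 341 to 426, and of 269.8 and 288, and its log2 fold change was 0.67 (SE 0.12, adjusted p = 0.0367 by limma). The call of Sulf1 was lost without bc201, bc202 or bc206 (adjusted p up to 0.14) and with litter as a term (0.0502). That of Gpc4 was lost without bc202, bc203, bc205, bc206 or bc207 (adjusted p up to 0.184). With Fezf2-EnR against Fezf2-/- the log2 fold changes were -0.63 (SE 0.18, adjusted p = 0.153 by limma) for Sulf1 and -0.48 (SE 0.14, adjusted p = 0.156) for Gpc4, and neither passed, although DESeq2 on the reads called Sulf1 (-0.67, adjusted p = 0.0233).

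The enzymes that build and sulfate the chain before the 3-O-sulfotransferases act had 0 calls in any of the 3 comparisons by limma. In Fezf2-/- against Fezf2+/+ an unadjusted p under 0.05 was reached by 1 of 6 enzymes of the linkage region, 1 of 5 of chain polymerisation, 1 of 5 of N-sulfation and epimerisation and 1 of 4 of 2-O- and 6-O-sulfation. Of all genes 10.8% reached it. For these and the genes below, abundance means the mean normalized value, which was not corrected for length. The most abundant of each group were Fam20b, the xylose kinase of the linkage region (log2 fold change -0.12, SE 0.05), Extl3, which starts the chain (-0.04, SE 0.05), Ndst1, the main N-deacetylase and N-sulfotransferase (-0.03, SE 0.05), and Hs6st2, a 6-O-sulfotransferase (-0.28, SE 0.10). Ndst4, another enzyme of N-sulfation, had the largest difference among them, with 94.8 to 121 in Fezf2+/+, 144 to 196 in Fezf2-/-, and 61.2 and 134 in Fezf2-EnR. Its log2 fold change of 0.71 (SE 0.23) had an adjusted p of 0.273 by limma. Extl2, which also acts at the start of the chain, had 0.17 (SE 0.07, adjusted p = 0.458 by limma).

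Among genes for the sulfate donor, Papss1, the more abundant of the synthases of activated sulfate, had a log2 fold change of -0.05 (SE 0.06) and Papss2 one of 0.62 (SE 0.17, adjusted p = 0.177 by limma) in Fezf2-/- against Fezf2+/+. Sulf2, the more abundant 6-O-endosulfatase, had 0.08 (SE 0.14), and Sdc3, a neuronal syndecan and the most abundant core protein, had 0.05 (SE 0.07). Hs3st6, a further 3-O-sulfotransferase outside the members, was at 5.26 to 6.76 in Fezf2+/+, 0 to 3.13 in Fezf2-/-, and 2.99 and 5.46 in Fezf2-EnR, and was too low to be tested. Of 15 enzymes of chondroitin and dermatan sulfate, a sugar chain made from the same linkage region, 0 passed in any of the 3 comparisons by limma. At an unadjusted p under 0.05 there were 4, 5 and 3 of them, against 10.8%, 16.9% and 19.3% of all genes. Chst11, the most abundant, had 0.29 (SE 0.07, adjusted p = 0.103 by limma) and Chst3 had 0.52 (SE 0.13, adjusted p = 0.156) in Fezf2-/- against Fezf2+/+. Of the proteins known to prefer 3-O-sulfated chains, Nrp1 (neuropilin-1) had 0.22 (SE 0.14) and Ppib (cyclophilin B) -0.13 (SE 0.05), and neither passed in any comparison.

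**Figure D4:**
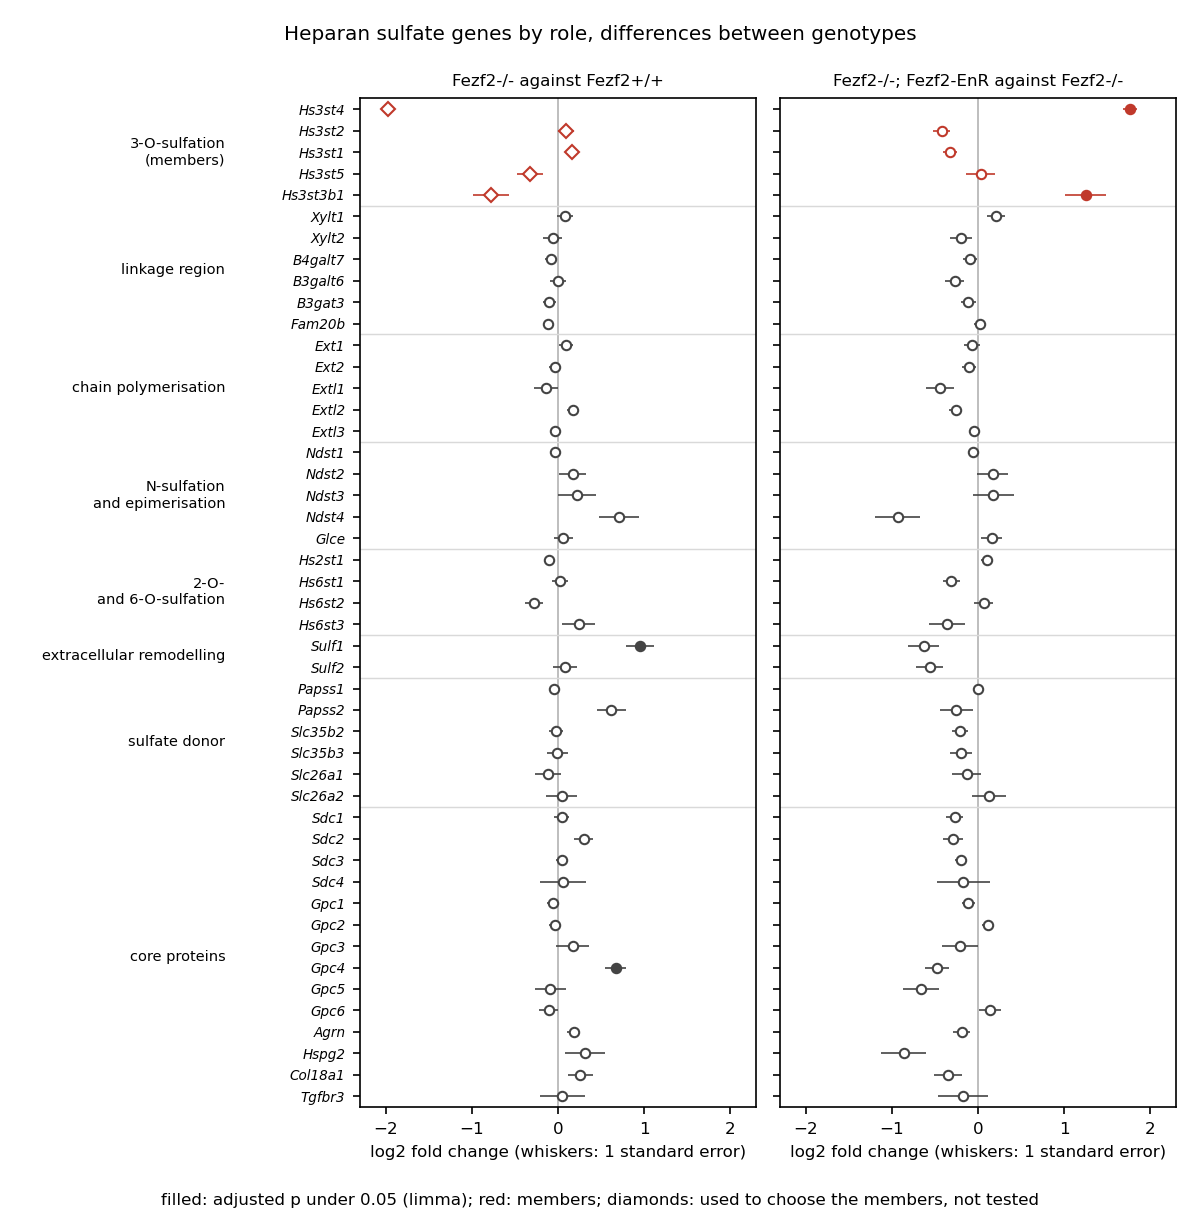
Log2 fold change on the log2(value + 1) scale with 1 standard error for the 5 members tested (red) and 42 other heparan sulfate genes by role, in Fezf2-/- against Fezf2+/+ (left) and Fezf2-EnR against Fezf2-/- (right), with filled points for an adjusted p under 0.05 and diamonds for the contrast that chose the members. Hs3st4 stands at -1.98 on the left and 1.77 on the right, while the other 42 genes lie between -0.28 and 0.95 on the left and between -0.93 and 0.21 on the right.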

How the data were processed

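PolyA-selected RNA-seq libraries from 9 P0 cortices were examined. The authors deposited reads per gene divided by a size factor of each library, a normalized signal. The submitters' processing notes name Bowtie, STAR, DESeq and mm10, with no role or order. The counting tool, annotation release and use of strand are not given in the sources used here. Every value came back to whole reads within 0.1 of a read in all 9 libraries, with 18716575 to 25127623 reads each, and these reads gave the count tests used as alternatives (edgeR 4.0.16, DESeq2 1.42.0).

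Genes with a mean of at least 10 (16197 of 24624) were tested on log2(value + 1) with limma 3.58.1 (lmFit, eBayes with a trend) in R 4.3.3, with 1 coefficient per genotype over all 9 libraries and Benjamini-Hochberg adjustment over all genes. Fold changes on this scale understate those of low genes. Litters were compared within Fezf2-/-. Each library is 1 pup. The limma p-values set a difference against the spread between these few pups, pooled over the genotypes and moderated by the trend over genes. The 6 members and all gene lists were chosen with earlier results of these data known. Named were the members, Fezf2, in each role group the gene with the highest mean normalized value, the gene with the largest change and any gene called, and the 5 nearest profiles. Individual cell-type markers were named where they passed, made up most of a summed level or departed from their list. Chst13 and Serpinc1 were not analysed here. Gene positions are from GENCODE M21 (GRCm38, 24595 identifiers matched), and start-site windows, found for all 6 members, are from RefSeq (GRCm38.p6). Alternatives were other pseudocounts, filters and scalings, litter as a term, fewer groups, and each library left out. Protein sequences were not used here.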

Additional observations from a re-analysis of the deposited data

How the results depend on the processing

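The log2 fold change of Hs3st4 stayed between -2 and -1.91 in Fezf2-/- against Fezf2+/+ over 20 alternatives. In Fezf2-EnR against Fezf2-/- it stayed between 1.64 and 1.91 over 19, and no alternative with both Fezf2-EnR libraries lost the call. For the fits without bc208 or bc209, which leave 1 Fezf2-EnR library, only the fold change is given, and no loss is meant. Both comparisons contain the Fezf2-/- libraries by which the gene was chosen, so nothing further is read from this. Other pseudocounts (0.1 and 10), TMM and median-ratio scaling turned no member's direction. In Fezf2-EnR against Fezf2-/- the members called were 1 in place of 2 with no filter, with a mean of at least 50, with litter as a term and with only the 2 groups compared, and 1 to 3 with a library left out. The call lost was that of Hs3st3b1, or the gene was then not tested. DESeq2 gave Hs3st3b1 no adjusted p and called 3 members. These were Hs3st4, which rose, and Hs3st1 (-0.32, adjusted p = 0.0451) and Hs3st2 (-0.43, adjusted p = 0.00639), which fell. The log2 fold change of Hs3st5 in that comparison turned to -0.02 with litter as a term and ranged from -0.21 to 0.26 with a library left out. Within Fezf2-/-, m3 against m1 ranged from -0.21 to 0.07 for Hs3st2 and from -0.09 to 0.02 for Hs3st4 with a library left out, and the added fit with genotype and litter terms called 1 member, Hs3st5.

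The number of genes called in Fezf2-/- against Fezf2+/+, 139, was 221 with only the 2 groups compared, 233 in litter m1 alone, 315 with DESeq2, and 66 (without bc201) to 217 (without bc209) with a library left out. In Fezf2-EnR against Fezf2-/- it was 124 and became 67 with only the 2 groups compared, 454 with DESeq2, and 21 (without bc209) to 1088 (without bc208). In Fezf2-EnR against Fezf2+/+ it was 19 and became 10 with a mean of at least 50, 32 with litter as a term, 12 with only the 2 groups compared, 641 with DESeq2, and 8 (without bc209) to 491 (without bc208). Fits without bc208 or bc209 leave 1 Fezf2-EnR library, assumed to vary like the other groups. Of the heparan sulfate genes, the 2 called in Fezf2-/- against Fezf2+/+ became 1 with litter as a term and 0 to 3 with a library left out, and the 0 called in Fezf2-EnR against Fezf2-/- became 3 with DESeq2 and 0 to 8 (without bc208). The cause of these differences was not tested. With 2 Fezf2-EnR libraries from different litters, litter and pup cannot be told apart there. The replicate codes are not shared between genotypes, so the only pairing that could be used was by litter, which the genotypes share in part.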
